A study of Mus musculus with 12 samples.

Results

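The IL-6 family cytokines and the receptor chains they bind were followed through pancreatic stellate cells (PSCs) grown alone or with the cells they meet in a pancreatic tumour. The genes are those of 5 receptor chains (*Osmr*, *Lifr*, *Il6st*, *Il6ra* and *Il11ra1*) and 5 cytokines (*Lif*, *Il6*, *Il11*, *Clcf1* and *Ctf1*), picked by gene symbol. All 10 were found among the 39179 genes of the count table. PSCs are the fibroblast-like cells of the pancreas, and the ones used were 1 clone of an SV40-immortalised mouse line that carried mCherry from a lentivirus, with C57BL/6 as the labelled strain. They were kept for 72 h in a low-serum medium alone (mono-PSCs), with tumour cells (PCCs) of a doxycycline-inducible mouse pancreatic cancer line that expressed EGFP (2W-PSCs), or with those PCCs and RAW264.7 macrophages (MØs) that expressed TagBFP (3W-PSCs). The total number of cells was held equal. After 72 h cells with mCherry and with neither EGFP nor TagBFP were sorted as PSCs, and 4 biological replicates of each culture gave 12 libraries of 3′ end tags. As all PSCs are of 1 clone, the spread between replicates is that between flasks and not between animals.

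The 5 cytokines signal through gp130, the chain encoded by *Il6st*, and another chain, signalling or only binding, sets the specificity. OSMR completes the receptor of oncostatin M, LIFR serves LIF, cardiotrophin 1 and, together with a further chain, the cardiotrophin-like cytokine CLCF1, whereas IL-6 and IL-11 first bind the non-signalling chains IL-6Rα and IL-11Rα. The paired chains activate JAK kinases and, above all, STAT3, which induces its own inhibitor SOCS3, and in the pancreatic tumour stroma IL-6 and LIF are known as products of inflammatory fibroblasts.

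PSCs grown with PCCs and MØs held far more *Osmr* mRNA than PSCs of either other culture, more *Il6st*, *Lif* and *Il6*, and less *Il11ra1*. Of the 8 family genes with enough counts for the test, 4 were higher and 1 lower in 3W- than in 2W-PSCs, where 10.7% of 11513 genes were called in either direction, 5.73% higher and 4.95% lower. Called genes are those with a Benjamini-Hochberg adjusted p under 0.05 over all genes in edgeR's quasi-likelihood test, and levels are TMM-scaled CPM (counts per 1000000 counts of a library). Between 2W-PSCs and mono-PSCs 0 of 6 family genes tested were called, against 0.991% of 11199 genes. Against mono-PSCs, 3W-PSCs had 6 of 8 family genes higher and 1 lower, against 26.4% of 11551 genes called, 13.4% higher and 13.0% lower. These 3 comparisons share libraries and are therefore not independent of each other. *Lif* and *Il6* had enough counts for a test only through 3W-PSCs, the culture in which they were high. They could hardly have been called lower, so their part in the counts of higher genes is not independent support. In bulk libraries, fewer cells with a transcript and less of it per cell cannot be told apart.

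**Figure D1:**
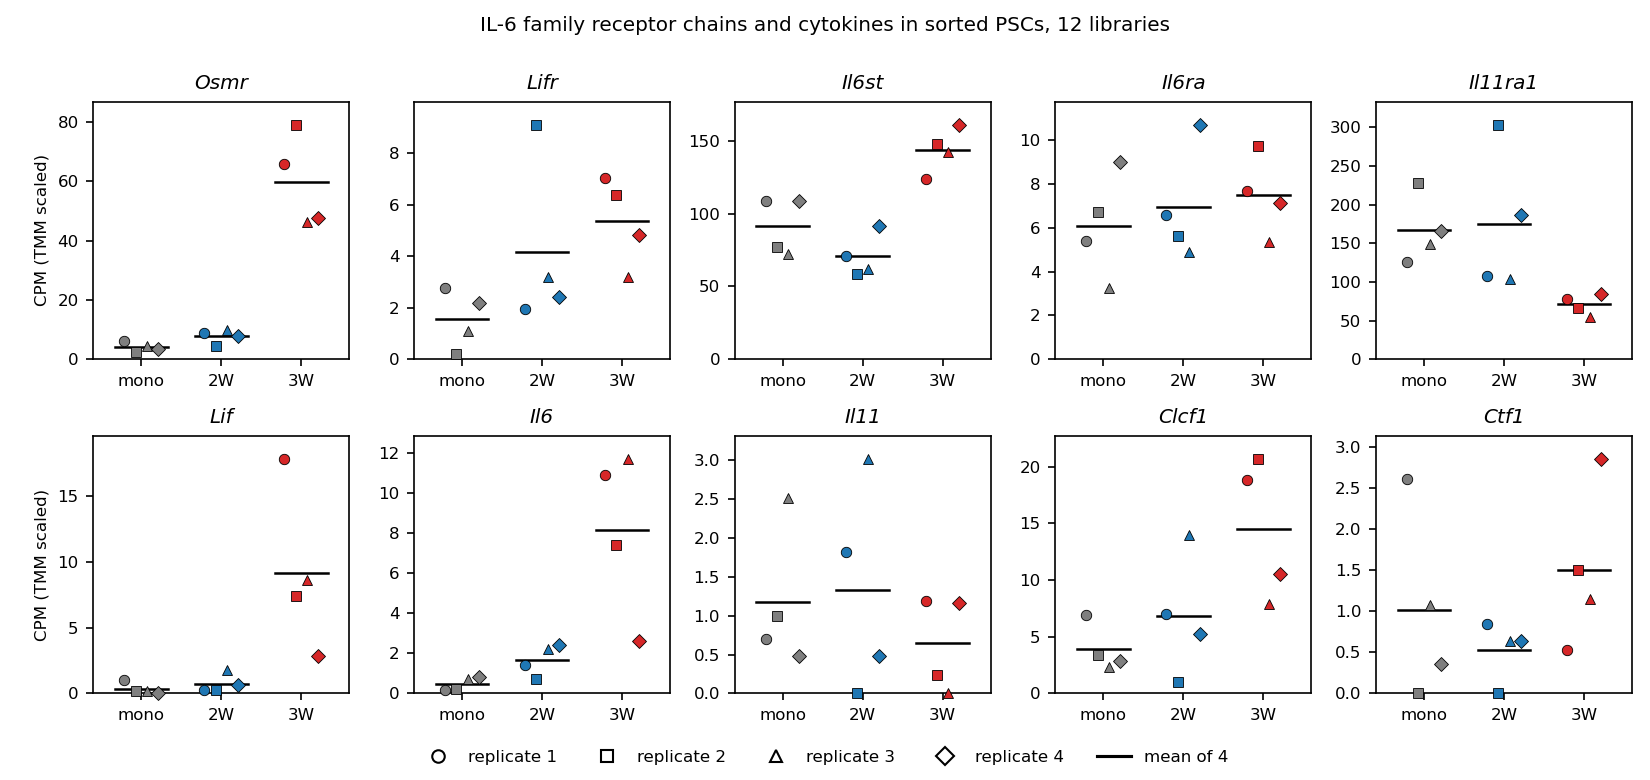
Levels of the 10 family genes in CPM, on axes that start at 0 and differ between genes, in mono-PSCs, 2W-PSCs and 3W-PSCs. Each point is 1 library, its shape gives the replicate number and the line the mean of 4. *Osmr* in 3W-PSCs lies between 46.3 and 78.9 CPM and in no other library above 10.001.

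Total counts lay between 5286963 and 8093368 in mono-PSCs, between 4561817 and 6907711 in 2W-PSCs, and between 7205488 and 8061367 in 3W-PSCs. Library 2 of the 2W-PSCs, with the total of 4561817, stood apart. Of all 12 libraries this one had the fewest genes with at least 10 counts (10363). It also had the largest share of counts in the single gene *Gm26924* (17.9%, against 10.1% to 16.2% in the others). It was the lowest or highest of its culture for 9 of the 10 family genes, so the fold changes that it moves most are given with and without it. Library 1 of the mono-PSCs was lowest or highest for 8 and library 3 of the 3W-PSCs for 7. Transcripts encoded by mitochondria took 7.39% to 8.19% of counts in 3W-PSCs, against 3.93% to 7.38% in 2W-PSCs and, in mono-PSCs, 3.10% to 6.71%, so that this measure of RNA composition moved with the presence of MØs. Its part in the differences below was not tested.

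Of the 14 fibroblast and stellate cell markers the defining *Col1a1*, *Pdgfra* and *Pdgfrb* were counted in every culture, *Gfap* was at 0 in every library and *Des* had at most 25 counts in a library, and the summed level of the list lay between 9353 and 12794 CPM in mono-PSCs, between 12754 and 19925 CPM in 2W-PSCs and between 7663 and 9035 CPM in 3W-PSCs. Of the 11 tested in 3W-PSCs against 2W-PSCs, 6 were lower, beside 4.95% of all genes. Among them were *Fap* (log2 fold change -3.88), *Col3a1* (-1.74) and *Sparc* (-1.48). The 2 that were higher, beside 5.73% of all genes, were *Pdgfra* (1.26) and *Pdpn* (1.01). Markers of the sorted cells themselves thus moved in the same comparison as the family genes. The part of this shift in the differences below was not tested. The 14 macrophage markers summed to between 2.26 and 8.32 CPM in mono-PSCs, between 4.48 and 10.8 CPM in 2W-PSCs and between 20.2 and 52.7 CPM in 3W-PSCs, where library 4 was the highest. In 3W-PSCs against 2W-PSCs 1 of 5 tested was called higher, beside 5.73% of all genes. This was *Cybb*, which was at 0 in all 2W-PSC libraries and had 32 to 73 counts in 3W-PSC libraries. Against mono-PSCs 3 of 5 were called higher, beside 13.4% of all genes. They were *Csf1r* (log2 fold change 4.54), *Cybb* (6.75) and *Mrc1* (7.51), which had 2, 1 and 0 counts in all in mono-PSCs. The defining *Csf1r* had a mean of 0.087 CPM in mono-PSCs, 2.35 in 2W-PSCs and 2.31 in 3W-PSCs. The second of these means rests largely on library 2, as the 2W-PSC libraries stood at 0.140, 6.88, 1.27 and 1.12 CPM. *Mrc1* had a mean of 0, 1.40 and 3.22 CPM, so that both genes were also counted in 2W-PSCs, which were grown without MØs. The defining marker *Adgre1* (listed under its older symbol *Emr1*) was at 0 in all 12 libraries and *Ptprc* in all of mono-PSCs and 2W-PSCs, and 7 of the 14 were at 0 in mono-PSCs and 7 in 2W-PSCs. The 12 epithelial markers summed to between 0.481 and 2.43 CPM in mono-PSCs, between 75.6 and 148.5 CPM in 2W-PSCs and between 52.4 and 91.1 CPM in 3W-PSCs, and of the defining markers *Epcam* had at most 3 counts in any library and *Cdh1* 63 to 214 counts in 2W-PSC libraries. The summed epithelial level thus moved with the presence of PCCs and the summed macrophage level with that of MØs, and what either adds to the levels of family genes was not tested.

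*Osmr*, the oncostatin M receptor chain, lies on the minus strand of chromosome 15 (chr15:6813577-6874969, GRCm38, ENSMUSG00000022146). In replicates 1 to 4 its level was 6.09, 2.38, 4.50 and 3.36 CPM in mono-PSCs, 8.69, 4.42, 10.001 and 7.99 CPM in 2W-PSCs, and 65.9, 78.9, 46.3 and 47.7 CPM in 3W-PSCs. All 3W-PSC libraries lay above all others, whereas mono-PSCs and 2W-PSCs overlapped. The means were 4.08 ± 1.59, 7.77 ± 2.39 and 59.7 ± 15.6 CPM (SD, n = 4 each), behind which stand 100, 193 and 1908 counts. The log2 fold change was 2.92 in 3W-PSCs against 2W-PSCs (SE 0.281, edgeR adjusted p = 0.000144), a 7.56-fold higher level, and 3.86 against mono-PSCs (SE 0.276, adjusted p = 2.10e-08). With PCCs alone it was 0.95 (SE 0.412, adjusted p = 0.609), and 1.13 without library 2 of the 2W-PSCs (adjusted p = 0.250). In all 4 same-numbered pairs of these cultures the 2W-PSC library was the higher one, and with the replicate number as a block the adjusted p was 0.410. *Osmr* was called in each of 14 alternative fits of 3W-PSCs against 2W-PSCs, with log2 fold changes of 2.74 to 3.05.

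*Il6st*, which encodes the gp130 chain that the receptors of the listed cytokines and of oncostatin M share, lies on chromosome 13 (chr13:112464070-112510086, ENSMUSG00000021756). Its level was 108.8, 76.9, 72.5 and 108.8 CPM in mono-PSCs, 70.8, 58.4, 61.8 and 91.5 CPM in 2W-PSCs, and 124.0, 148.3, 142.3 and 161.0 CPM in 3W-PSCs. The 3W-PSC libraries did not overlap with those of either other culture. *Il6st* was 2.03-fold higher in 3W- than in 2W-PSCs (log2 fold change 1.02, SE 0.180, edgeR adjusted p = 0.00532) and 1.56-fold higher than in mono-PSCs (0.64, SE 0.171, adjusted p = 0.0101). In 2W-PSCs against mono-PSCs the log2 fold change was -0.36 (SE 0.220, adjusted p = 0.887). The shared chain thus changed less than *Osmr*, from a level that was already high without MØs.

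*Il11ra1*, the binding chain for IL-11, was the only one of the 8 family genes tested that fell in 3W-PSCs. It lies on chromosome 4 (chr4:41699989-41769474, ENSMUSG00000073889), with 125.9, 227.7, 149.0 and 166.0 CPM in mono-PSCs, 107.0, 303.0, 104.1 and 187.0 CPM in 2W-PSCs, and 78.4, 66.2, 54.3 and 84.3 CPM in 3W-PSCs. Every 3W-PSC library lay below every other library. The level in 3W-PSCs was 2.48-fold lower than in 2W-PSCs (log2 fold change -1.31, SE 0.324, edgeR adjusted p = 0.0272) and 2.36-fold lower than in mono-PSCs (-1.24, SE 0.190, adjusted p = 0.000115). The comparison with 2W-PSCs held in 9 of 14 alternative fits, and the adjusted p rose to between 0.0576 and 0.0953 when library 4 of the 2W-PSCs or any 1 of the 3W-PSC libraries was left out. Without library 2 of the 2W-PSCs, which had the highest level of all, the log2 fold change was -0.91 (adjusted p = 0.00657). Of the 75-base windows in the last 500 bases of its transcripts, 36.9% also occur in *Gm13305* or *Il11ra2*, so reads from these copies may be counted together or lost. *Il11ra2* was at 0 in all libraries.

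*Lifr*, the LIF receptor chain, lies near *Osmr* on chromosome 15, on the opposite strand (chr15:7090614-7197489, ENSMUSG00000054263). It was counted at a low level, with 2.78, 0.198, 1.08 and 2.16 CPM in mono-PSCs, 1.96, 9.09, 3.17 and 2.40 CPM in 2W-PSCs, and 7.04, 6.39, 3.18 and 4.80 CPM in 3W-PSCs. The 3W-PSC libraries all lay above the mono-PSC libraries but overlapped with 2W-PSCs, of which library 2 was the highest of all 12. *Lifr* was higher in 3W- than in mono-PSCs (log2 fold change 1.72, SE 0.523, edgeR adjusted p = 0.0215). Against 2W-PSCs the log2 fold change was 0.41 (SE 0.508, adjusted p = 0.659), and 1.09 without library 2 of the 2W-PSCs (adjusted p = 0.0891). The call against mono-PSCs held in 9 of 13 alternative fits, and was lost with all 12 libraries in one fit (adjusted p = 0.0603) and without mono-PSC library 3 or 3W-PSC library 1 or 2, with adjusted p of up to 0.0684.

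*Il6ra*, the binding chain for IL-6 (chr3:89864059-89913196, ENSMUSG00000027947), had overlapping levels in the 3 cultures. They were 5.39, 6.74, 3.24 and 9.01 CPM in mono-PSCs, 6.59, 5.65, 4.92 and 10.7 CPM in 2W-PSCs, and 7.71, 9.75, 5.34 and 7.14 CPM in 3W-PSCs. The log2 fold change in 3W-PSCs was 0.10 against 2W-PSCs (SE 0.329, edgeR adjusted p = 0.884) and 0.28 against mono-PSCs (SE 0.341, adjusted p = 0.581). On the opposite strand *Gm42809* overlaps 242 of its exonic bases, and the strand setting of the counting is not given in the sources used here.

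**Figure D2:**
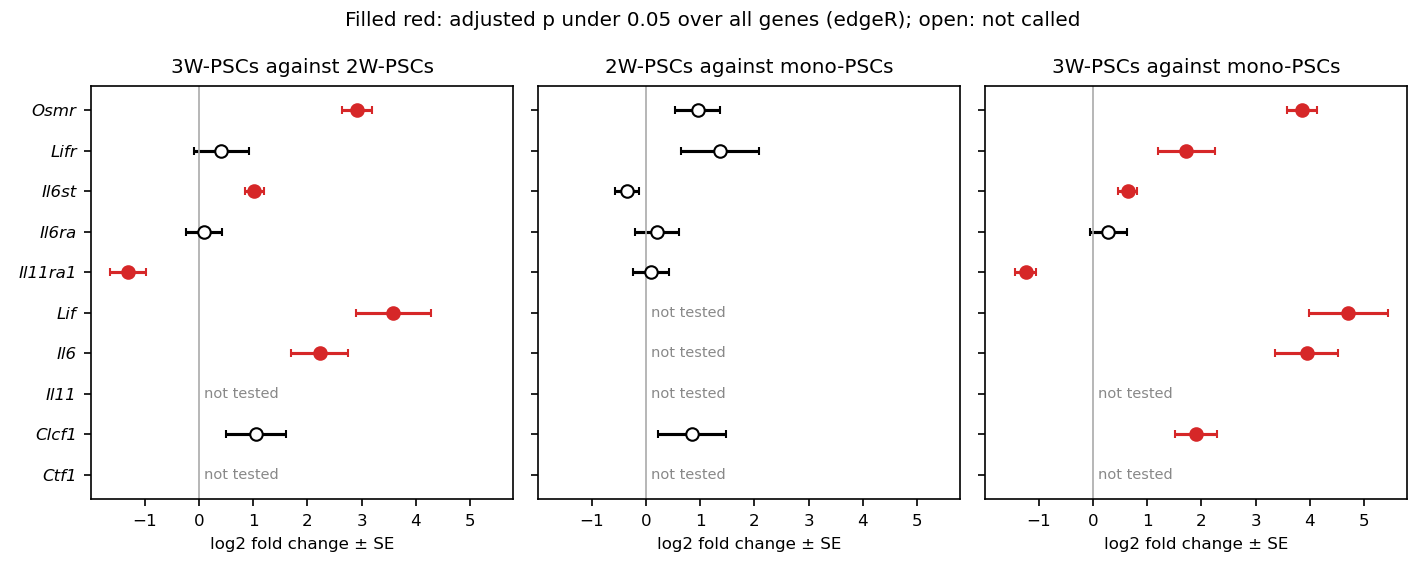
Log2 fold changes of the family genes (x axis) with their standard errors, in 3 panels for 3W-PSCs against 2W-PSCs, 2W-PSCs against mono-PSCs and 3W-PSCs against mono-PSCs. Filled red points were called by edgeR at an adjusted p under 0.05 over all genes, open points were not, and genes under the filter on low counts are marked as not tested. In 3W-PSCs against 2W-PSCs 5 points are filled, of which *Il11ra1* alone lies below 0.

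The set of receptor chains was made up differently in 3W-PSCs. The 3′ kit yields about 1 tag per transcript, so counts of the 5 chains can be added within a library without a correction for length, and such shares need no scaling between libraries. *Osmr* took 2.44%, 0.758%, 1.95% and 1.16% of the summed receptor counts in mono-PSCs, 4.45%, 1.16%, 5.44% and 2.67% in 2W-PSCs, and 23.3%, 25.5%, 18.4% and 15.7% in 3W-PSCs. From the 1159 to 2666 receptor counts of a library, the exact binomial 95% interval was 14.2% to 17.2% in the lowest 3W-PSC library and 4.20% to 6.90% in the highest of the others, which covers counting error only. The mean share was 17.3 percentage points higher in 3W- than in 2W-PSCs and 19.1 points higher than in mono-PSCs (two-sided exact permutation test, p = 0.0286 for both, the smallest that 4 against 4 libraries allow, adjusted p = 0.0429 over the 3 pairs of cultures). Between 2W-PSCs and mono-PSCs it differed by 1.85 points (exact permutation test, adjusted p = 0.143). Without library 2 of the 2W-PSCs, whose share of 1.16% was the lowest of its culture, it differed by 2.61 points (exact test, adjusted p = 0.0286). That library was set apart by the levels of these same genes, so the second p cannot be taken as evidence of a difference.

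*Il11ra1* fell from 63.4% ± 11.3 of receptor counts in 2W-PSCs to 24.6% ± 3.57 in 3W-PSCs, and the share of *Il6st* was 28.9% ± 9.35 and 50.3% ± 5.59 (SD, n = 4 each, no test of these shares). By counts, the leading chain was therefore *Il11ra1* in every mono-PSC and 2W-PSC library and *Il6st* in every 3W-PSC library. Reads of *Il11ra1* may be lost to its copies or counted with theirs, so this order holds for counts only. *Lifr* took 0.599% ± 0.445, 1.48% ± 0.724 and 1.85% ± 0.539 in mono-PSCs, 2W-PSCs and 3W-PSCs, and *Il6ra* 2.21%, 2.78% and 2.58%. The *Lifr* share lay between 0.063% and 1.12% in mono-PSCs and between 1.26% and 2.49% in 3W-PSCs, a difference that was not tested. For each *Lifr* count there were 2.19, 12, 4.17 and 1.56 *Osmr* counts in mono-PSCs, 4.43, 0.486, 3.15 and 3.33 in 2W-PSCs, and 9.36, 12.4, 14.6 and 9.95 in 3W-PSCs. The value of 12 in mono-PSC library 2 rests on 1 *Lifr* count. On the log2 scale, with 0.5 added to each count, the ratio of *Osmr* to *Lifr* was 2.39 higher in 3W- than in 2W-PSCs and 1.80 higher than in mono-PSCs (exact permutation test, adjusted p = 0.0429 for both). *Osmr* thus rose more than *Lifr*, the other signalling partner of gp130 among the chains counted here. With any 1 of the 3W-PSC libraries left out, the adjusted p of both differences was 0.0857.

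**Figure D3:**
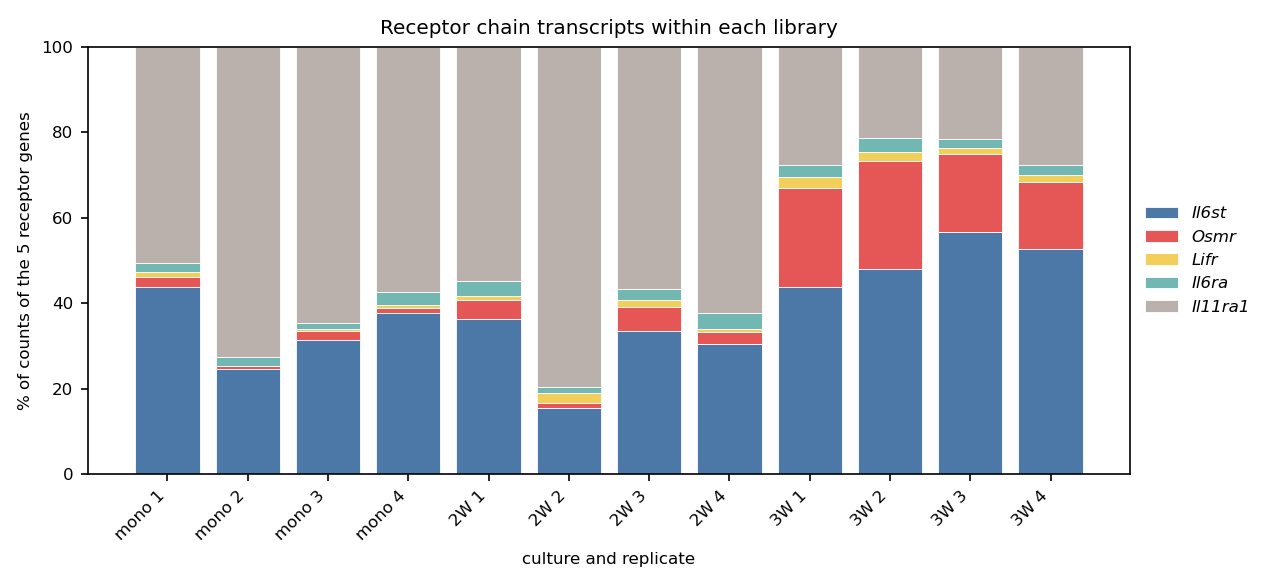
Share of each of the 5 receptor chain genes (y axis, % of their summed counts) in each of the 12 libraries (x axis). The red part, *Osmr*, takes 15.7% to 25.5% of the bar in 3W-PSCs and at most 5.44% in the other cultures, and the grey part, *Il11ra1*, is smallest in 3W-PSCs.

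In the order of mean levels of all 10 genes, *Il11ra1* and then *Il6st* led in mono-PSCs and 2W-PSCs, with no overlap between them or with the third gene. The third gene, *Il6ra* in mono-PSCs and *Osmr* in 2W-PSCs, overlapped with the next. In 3W-PSCs the order was *Il6st*, *Il11ra1* and *Osmr*. There *Il6st* was apart from *Il11ra1*, *Il11ra1* and *Osmr* overlapped, with *Il11ra1* above in 3 of 4 libraries, and *Osmr* was apart from the fourth gene, *Clcf1*.

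Among the cytokines, *Lif*, *Il6* and *Clcf1* were higher in 3W- than in mono-PSCs, and *Il11* and *Ctf1* were at the limit of detection. Promoter sequences are shown because these 3 cytokines and *Osmr* were all higher in that comparison, as were *Il6st* and *Lifr*. No promoter was found for *Clcf1*. The 250 bases before the RefSeq start (GRCm38.p6) were found for 9 of the 10 genes and searched on both strands for TTCNNNGAA, a STAT site, and TGANTCA, an AP-1 site. The windows shown are those of *Lif*, *Il6* and *Osmr*, the genes with the largest fold changes, and of *Il11*, a cytokine with few counts that has the AP-1 letters at the second of its 2 starts. They run 5′ to 3′ towards the start, and capitals mark TGANTCA.
Lif (chr11:4257318-4257567, plus strand): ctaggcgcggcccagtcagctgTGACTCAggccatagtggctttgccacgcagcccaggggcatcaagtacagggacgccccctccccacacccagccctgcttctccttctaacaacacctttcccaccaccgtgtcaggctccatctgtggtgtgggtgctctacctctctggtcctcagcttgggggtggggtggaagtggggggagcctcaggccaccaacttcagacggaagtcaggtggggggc
Il6 (chr5:30012864-30013113, plus strand): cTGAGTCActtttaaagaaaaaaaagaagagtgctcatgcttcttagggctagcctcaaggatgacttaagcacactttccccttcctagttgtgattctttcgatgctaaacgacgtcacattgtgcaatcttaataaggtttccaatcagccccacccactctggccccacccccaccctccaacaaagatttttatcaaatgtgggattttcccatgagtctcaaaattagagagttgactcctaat
Il11 (chr7:4778142-4778391, minus strand): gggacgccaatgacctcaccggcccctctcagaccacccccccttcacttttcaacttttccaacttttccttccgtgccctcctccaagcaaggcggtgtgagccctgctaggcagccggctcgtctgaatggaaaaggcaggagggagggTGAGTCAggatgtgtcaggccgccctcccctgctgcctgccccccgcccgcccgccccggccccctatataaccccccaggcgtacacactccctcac
Osmr (chr15:6874314-6874563, minus strand): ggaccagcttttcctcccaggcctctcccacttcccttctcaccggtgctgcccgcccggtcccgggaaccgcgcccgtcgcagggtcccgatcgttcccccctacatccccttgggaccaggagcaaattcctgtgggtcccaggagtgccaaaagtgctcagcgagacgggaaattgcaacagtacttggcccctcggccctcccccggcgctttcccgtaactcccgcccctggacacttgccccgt

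The AP-1 letters begin 228 bases before the start of *Lif*, 249 before that of *Il6* and 98 before the second start of *Il11*, and are not in the windows of the other genes found. They occur in 6.75% of all 32851 promoter windows of the table. The STAT letters are in none of the family's windows and in 7.02% of all. A match is only one of letters, and binding was not measured in these libraries. The *Osmr* start of RefSeq lies inside the longer gene model of the annotation used for positions.

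*Lif*, the leukaemia inhibitory factor, lies on chromosome 11 (chr11:4257557-4272514, ENSMUSG00000034394). It had 6, 1, 1 and 0 counts in mono-PSCs, 2, 1, 11 and 4 in 2W-PSCs, and 134, 64, 68 and 22 in 3W-PSCs, at levels of 17.8, 7.43, 8.65 and 2.85 CPM in the last. The lowest 3W-PSC library, number 4, still lay above the highest of the others, which had 1.75 CPM. Mean levels were 0.728 ± 0.702 CPM without MØs (2W-PSCs) and 9.19 ± 6.27 CPM with them (SD, n = 4 each). The log2 fold change between these cultures was 3.58 (SE 0.691, edgeR adjusted p = 0.00837). Against mono-PSCs, with 8 counts in all, it was 4.71 (SE 0.730, adjusted p = 0.000131). Both calls held in each of 13 alternative fits in which *Lif* was tested.

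*Il6*, on chromosome 5 (chr5:30013114-30019981, ENSMUSG00000025746), encodes the cytokine that gives the family its name. It had 1, 1, 4 and 7 counts in mono-PSCs, 10, 3, 14 and 15 in 2W-PSCs, and 82, 64, 92 and 20 in 3W-PSCs. The 3W-PSC libraries stood at 10.9, 7.43, 11.7 and 2.59 CPM, the last of which was only just above the highest 2W-PSC library with 2.40 CPM. The log2 fold change was 2.23 against 2W-PSCs (SE 0.523, edgeR adjusted p = 0.0213) and 3.94 against mono-PSCs (SE 0.585, adjusted p = 8.47e-05). The first of these calls held in 8 of 13 alternative fits, and was lost without 2W-PSC library 1 or 3W-PSC library 1, 2 or 3 and with the replicate number as a block, with adjusted p of 0.0555 to 0.0729, while the second held in all 13. The test of 2W-PSCs against mono-PSCs did not include *Il6* or *Lif* for lack of counts, and their levels in those 2 cultures overlapped, although *Il6* was higher in the 2W-PSC library in all 4 same-numbered pairs. Library 4 of the 3W-PSCs was the lowest of its culture for both cytokines and the highest for macrophage markers.

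*Clcf1*, the cardiotrophin-like cytokine, is on chromosome 19 (chr19:4214238-4223490, ENSMUSG00000040663). Its level was 6.95, 3.37, 2.34 and 2.88 CPM in mono-PSCs, 7.01, 0.982, 13.97 and 5.27 CPM in 2W-PSCs, and 18.9, 20.7, 7.89 and 10.51 CPM in 3W-PSCs. The 3W-PSC libraries lay above those of mono-PSCs, whereas 2W-PSCs spread over both. *Clcf1* was 3.71-fold higher in 3W- than in mono-PSCs (log2 fold change 1.89, SE 0.386, edgeR adjusted p = 0.00147), a call that held in all 14 alternative fits. Against 2W-PSCs the log2 fold change was 1.06 (SE 0.550, adjusted p = 0.251), and 0.72 without library 2 of the 2W-PSCs (adjusted p = 0.203). On the same strand 311 of its exonic bases are shared with *AC109138.7*, with which reads could be split.

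*Il11* (chr7:4772373-4782859, ENSMUSG00000004371) had 4, 5, 14 and 4 counts in mono-PSCs, 13, 0, 19 and 3 in 2W-PSCs and 9, 2, 0 and 9 in 3W-PSCs, and *Ctf1*, cardiotrophin 1 (chr7:127712736-127718192, ENSMUSG00000042340), had 15, 0, 6 and 3, then 6, 0, 4 and 4, then 4, 13, 9 and 22. The cultures overlapped for both genes. Neither passed the filter on low counts in any of the 3 comparisons, and a library in which a gene has no count allows a level of up to 0.348 to 0.737 CPM, the worth of 3 counts. In edgeR without that filter and in DESeq2, neither gene was called in any comparison. There the log2 fold changes in 3W-PSCs against 2W-PSCs were 1.42 and 1.43 for *Ctf1* (adjusted p of at least 0.307) and -1.06 and -1.07 for *Il11* (at least 0.594). With so few counts these tests could miss smaller changes in either gene.

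With PCCs alone, none of the 6 family genes that could be tested was called by edgeR or by DESeq2, and 1 of them, *Osmr*, had an unadjusted p under 0.05 (0.0381 in edgeR, where 7.40% of all genes had one). The log2 fold changes were 1.37 for *Lifr* (SE 0.716), 0.85 for *Clcf1* (SE 0.621), 0.21 for *Il6ra* (SE 0.406) and 0.09 for *Il11ra1* (SE 0.329). Without library 2 of the 2W-PSCs again 0 were called, of 7 tested, and the log2 fold change of *Lifr* was 0.66, that of *Clcf1* 1.18 and that of *Il11ra1* -0.32. *Il6st* was lower in the 2W-PSC library in all 4 same-numbered pairs. These standard errors leave room for changes of 2-fold in *Lifr*, *Clcf1* and *Osmr*, and the absence of a call does not show that a gene stayed level.

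Of 10 further genes of the family and its receptors, 6 had no count in any library. These were *Osm*, the ligand of OSMR, *Cntfr*, *Ctf2*, *Il31*, *Il27* and *Il11ra2*. The other 4, *Cntf*, *Il31ra*, *Il27ra* and *Ebi3*, had too few counts for a test in any comparison. The sorted PSCs thus held no detected transcript of the ligand of the receptor chain that rose most.

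Genes that carry the signal from gp130 were followed as a list of 20 kinases, STATs, inhibitors, adaptors and sheddases, all of which were tested. In 3W-PSCs against 2W-PSCs 4 were higher, 0 lower and 16 not called, where 5.73% of all genes were called higher, and the median log2 fold change was 0.53 beside 0.0025 over all genes tested. They were *Socs3*, the feedback inhibitor of gp130 (log2 fold change 2.02), *Stat3* (1.78), *Jak2* (1.73) and *Adam17*, a protease that sheds IL-6Rα (0.95). *Stat3* stood between 59.8 and 78.2 CPM in mono-PSCs, between 54.8 and 81.4 CPM in 2W-PSCs and between 185.9 and 288.0 CPM in 3W-PSCs (SE 0.189, edgeR adjusted p = 0.000271 against 2W-PSCs). The 3W-PSC libraries were well apart from the others for *Stat3*, while *Jak1*, the kinase that shares gp130 with JAK2, had a log2 fold change of 0.12 (SE 0.199, adjusted p = 0.758).

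*Socs3* stood at 33.9, 8.13, 16.7 and 14.1 CPM in mono-PSCs, 21.4, 1.23, 30.2 and 13.1 CPM in 2W-PSCs and 64.8, 80.1, 68.2 and 58.8 CPM in 3W-PSCs. All 3W-PSC libraries were above the rest, yet with 2W-PSCs so spread the call (SE 0.546, edgeR adjusted p = 0.0386) held in only 6 of 13 alternative fits, with an adjusted p of up to 0.116. Against mono-PSCs it held in all 14 (log2 fold change 1.89, adjusted p = 0.000149). In that comparison 6 of the 20 genes were higher and 0 lower, with *Socs1* and *Cish* besides those 4, where 26.4% of all genes were called and 13.4% were higher. In 2W-PSCs against mono-PSCs 0 of 20 were called by edgeR, 0 had an unadjusted p under 0.05, and DESeq2 called 0. With 1 library left out at a time, 3 to 7 of the list were higher in 3W- than in 2W-PSCs, and it was 7, with 1 lower, without library 2 of the 2W-PSCs.

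**Figure D4:**
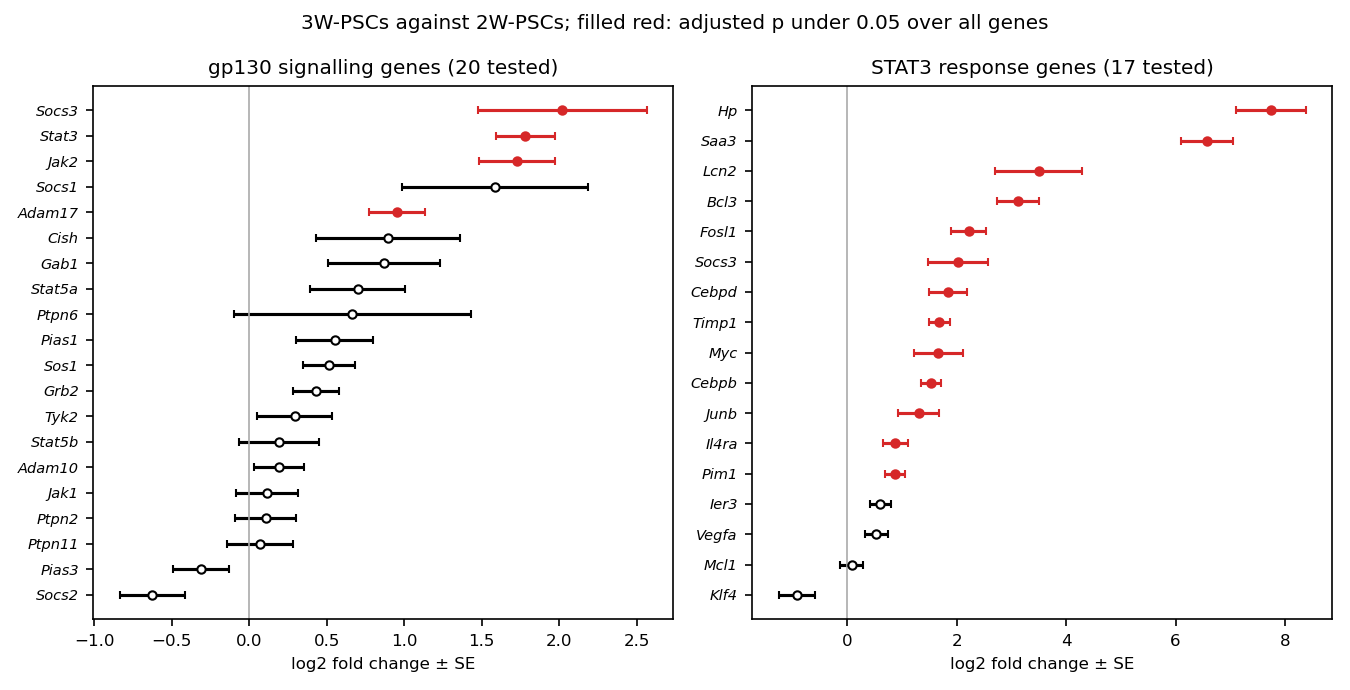
Log2 fold changes (x axis) with standard errors in 3W-PSCs against 2W-PSCs for the 20 gp130 signalling genes (left) and the 17 STAT3 response genes tested (right). Filled red points, 4 on the left and 13 on the right, were called at an adjusted p under 0.05 over all genes, and each of them lies above 0. *Socs3* is in both panels, and the error bar of *Hp* does not cover that it had 2 counts in all in 2W-PSCs.

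Of a list of 18 genes known to respond to STAT3, 17 were tested in 3W-PSCs against 2W-PSCs, and 13 were higher, 0 lower and 4 not called, beside 5.73% of all genes called higher and 4.95% lower, with a median log2 fold change of 1.67. *Saa3*, an acute phase protein, stood between 0.869 and 4.36 CPM in mono-PSCs and between 1.12 and 3.49 CPM in 2W-PSCs. In 3W-PSCs it reached 342.7, 332.7, 121.9 and 148.4 CPM (log2 fold change 6.58 against 2W-PSCs, SE 0.478, edgeR adjusted p = 3.26e-05). *Hp*, haptoglobin, had 2 counts in the 2W-PSC libraries together and 705 in the 3W-PSC libraries, a ratio of 264.3 after scaling with an exact 95% counting interval of 72.9 to 2186. The iron-binding *Lcn2* (log2 fold change 3.50, adjusted p = 0.0177) and the NFκB cofactor *Bcl3* (3.12, adjusted p = 0.000701) followed. *Lcn2* remained called in 9 of 13 alternative fits (adjusted p of up to 0.0658), and *Hp*, *Saa3* and *Bcl3* in all 13 each. *Hp*, *Lcn2* and *Bcl3* passed the filter on low counts only through 3W-PSCs, in either comparison with that culture. They could hardly have been called lower, so their part in the counts of higher genes is not independent support. Acute phase genes of this list also respond to other inflammatory signals such as NFκB.

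In 3W-PSCs against mono-PSCs 16 of 17 STAT3 response genes tested were higher and 1, *Klf4*, lower, beside 13.4% and 13.0% of all genes, with a median log2 fold change of 1.89 beside 0.012 over all genes. In 2W-PSCs against mono-PSCs 1 of 14 was called, beside 0.991% of all genes, *Il4ra*, the IL-4 receptor chain (log2 fold change 2.06, edgeR adjusted p = 0.00834), and the median was 0.33 beside 0.020 over all genes. With 1 library left out at a time, 8 to 14 genes of the list were higher in 3W- than in 2W-PSCs, and 8 without 3W-PSC library 1 or 2. Without library 4 of the 3W-PSCs, the one with the most macrophage transcripts, 9 were higher.

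The genes whose levels ran most like those of the family were sought among 8700 genes with a mean log2 CPM above 3 over the 12 libraries. For *Osmr* they were *Tnfaip2* (Pearson's r = 0.992), *Sdc1* (0.982) and *Nrp2* (0.980). For *Il6st* they were *Tbc1d2b* (0.957), *Mvp* (0.946) and *Wipf2* (0.943), and for *Il11ra1* *Sae1* (0.978), *Mtch1* (0.976) and *Rilpl1* (0.973). Since the 12 points are 3 cultures of 4 libraries, any gene that differs between cultures in the same way reaches a high r, and the values are a description only. The other 7 family genes lay under this level.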

How the data were processed

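RNA of PSCs sorted from 3 cultures was measured in 12 libraries, 4 per culture. The authors made QuantSeq 3′ FWD libraries, trimmed the 75-base single reads, aligned them with STAR to GRCm38 and used featureCounts with the Ensembl annotation. The deposited values are raw whole-number counts per gene, which the methods call normalised, in one column per library. Molecular identifiers and the strand setting are not given in the sources used here, so counts may include PCR copies and intervals cover counting error only. A 3′ kit undercounts genes whose annotated end is wrong.

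Here, cultures were compared in pairs over the 8 libraries concerned with edgeR 4.0.16 (R 4.3.3): filterByExpr, TMM, glmQLFit and glmQLFTest with a prior count of 0.125, Benjamini-Hochberg adjustment over all genes tested, and calls at an adjusted p under 0.05. Each SE is the log2 fold change divided by the square root of its F statistic. CPM were TMM-scaled over all 12 libraries. Shares and ratios of counts were compared with two-sided exact permutation tests. DESeq2 1.42.0, its size factors, 2 other filters, a fit of all 12 libraries, a replicate block and each library left out in turn were alternatives. The same alternatives for the gene lists were chosen after seeing the data. The edgeR fits were first tested on simulated counts, and the exact tests on values with known answers.

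Named were all 10 family genes, up to 4 genes per list with the largest called change in 3W-PSCs against 2W-PSCs, any gene of a list with few tested, and the 3 genes most like a member by Pearson's r of log2 CPM (prior count 2). Named outside this rule, after their values were seen, were *Jak1*, *Socs1*, *Cish*, *Klf4* and *Il4ra*. Of the marker lists, the defining genes, the largest called changes and, after their values were seen, *Gfap*, *Des*, *Mrc1*, *Pdgfra* and *Pdpn* are named. The genes and lists were chosen with earlier results of these data known, and 2 genes of the lists are not reported here and were left out of their counts.

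Positions are from GENCODE M21 and promoters from RefSeq. Replicate numbers are shared by the cultures. In 2W-PSCs against mono-PSCs all 4 same-numbered pairs deviated together from their group means (r = 0.153 to 0.499), although no source says what a number stands for, and the block changed no call of a family gene there.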

Additional observations from a re-analysis of the deposited data

Results flagged for a closer look

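In 36 groups of 4 libraries, made of the 10 family genes, the *Osmr* share and the log2 ratio of *Osmr* to *Lifr* in each culture, 2 values stood far from the other 3 of their group by Dixon's criterion, which chance alone meets in about 1 of 20 groups. *Lifr* in library 2 of the 2W-PSCs stood at 9.09 CPM, with the other 3 at 1.96 to 3.17 CPM. In the same library the log2 ratio of *Osmr* to *Lifr* was -1.02, with the other 3 at 1.63 to 2.11. The second value contains the first, so they are not independent. What set this library apart was not tested.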

How the results depend on the processing

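Of the family genes called in 3W-PSCs against 2W-PSCs, *Osmr*, *Il6st* and *Lif* were called under every alternative in which they were tested. The count of 5 of 8 became 3 of 5 tested when 10 counts were required in every library, a filter that removes *Lif*, *Il6* and *Clcf1*, and 3 to 5 with 1 library left out, the 3 without 3W-PSC library 1, 2 or 3. Against mono-PSCs the count of 7 of 8 became 4 of 5 under that filter. Without 3W-PSC library 1 or 2, 8 of 17 STAT3 response genes were higher than in 2W-PSCs. The number of all genes called in 3W-PSCs against 2W-PSCs, 1230, was 497 without 3W-PSC library 2, 2107 without 2W-PSC library 2, 752 with the replicate block and 1808 in DESeq2. In 2W-PSCs against mono-PSCs it was 111, 233 without 2W-PSC library 2, 57 with 10 counts required in every library and 275 in DESeq2.

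The difference in *Osmr* share was 17.3 and 19.1 points with the replicate block as without it, and the log2 ratio of *Osmr* to *Lifr* differed by 2.39 and 1.80, with adjusted p of 0.125 for the share and 0.188 for the ratio, but 4 pairs cannot give an exact p under 0.125. With 1 library left out, the ratio differed by 1.68 to 2.72 against 2W-PSCs and by 1.45 to 2.26 against mono-PSCs. Between 2W-PSCs and mono-PSCs the share then differed by 1.18 to 2.61 points and the ratio by -0.94 to 0.12, where the highest values are those without 2W-PSC library 2.

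The replicate block left 4 of 8 family genes called in 3W-PSCs against 2W-PSCs, without *Il6* (adjusted p = 0.0709), and changed no other call of a family gene. In the comparisons with 3W-PSCs the same-numbered pairs did not all deviate together (r of -0.062 to 0.226). Over all cultures together, 10 of 12 libraries correlated best with one of their own number. Uncalled values changed sign for *Il6ra* (-0.055 to 0.38 in 3W-PSCs against 2W-PSCs and -0.082 to 0.46 in 2W-PSCs against mono-PSCs with 1 library left out) and for *Il11ra1* in 2W-PSCs against mono-PSCs (-0.017 with the block and -0.32 to 0.27 with 1 library left out). The causes were not tested.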
